A study of Mus musculus with 12 samples.

Results

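Neuronal and synaptic genes were read in teratomas of mouse ES cells as a set of 40 gene symbols, chosen by name, with earlier results of these data known. The set held 13 genes of the neuronal cytoskeleton and neuronal identity, 8 of synaptic vesicles and transmitter release, 6 transmitter enzymes and transporters, 9 glutamate receptors and postsynaptic proteins, 3 voltage-gated channels and the ephrin ligand Efnb3. All 40 were among the 38986 genes listed for each library. Of these, 39 passed the filter on low counts and were tested among 18405 genes. Slc17a7, a vesicular glutamate transporter of cortical neurons, was not tested, since its level stayed between 0.111 and 0.529 CPM (counts per 1000000 counts of the scaled library total) in the 12 libraries.

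The teratomas grew from R1 mouse ES cells that stably carried a lentiviral pEZ-LV235 vector with a CAG promoter, which is active in most cell types, so that the insert was not limited to neurons. The vector was empty in the ET group. It carried Dnmt3L in the WT group, Dnmt3L with a lysine-to-arginine change in the other two, at the position named in K238R and in K412R. All groups shared the host, 8-week-old male immunodeficient NOD-PrkdcEM1 mice injected under the skin, and collection at day 21. Each group had 3 libraries of whole-tumor RNA. In such bulk RNA, fewer neurons and less RNA of a gene per neuron cannot be told apart.

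Neurons are built from a few shared modules. Tubulins, microtubule-binding proteins and neurofilaments shape the axon and dendrites, and RNA-binding proteins such as Elavl3 and Rbfox3 mark cells that have left the progenitor state. At the synapse, SNARE proteins and the calcium sensor Syt1 release vesicles that were filled with glutamate, GABA or acetylcholine, and receptors held by scaffold proteins such as Dlg4 receive them. Teratomas of ES cells commonly contain neural tissue beside derivatives of the other germ layers. Dnmt3L has no catalytic activity of its own and stimulates the enzymes that place new methyl groups on CpG dinucleotides.

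Library totals were between 16957677 and 18546100 counts, a spread of 1.09-fold. Dnmt3l itself was at 0.642 to 7.72 CPM in ET, 163 to 213 CPM in WT, 24.9 to 39.8 CPM in K412R and 0.526 to 1.85 CPM in the libraries labelled K238R. The last group therefore had the Dnmt3l level of the empty vector, against its label, and is called the libraries labelled K238R throughout. Neuronal RNA was present in every library, since 38 of the 40 genes had at least 100 counts in every library. Within groups, ET replicate 2 and WT replicate 1 lay apart from the other libraries of their group. The median deviation of the 39 genes from their mean over 12 libraries was 0.24 in ET replicate 2 on the log2 scale, against -0.33 and -0.75 in ET replicates 1 and 3. It was 0.08 in WT replicate 1, against 0.51 and 0.63 in WT replicates 2 and 3. WT replicate 3 was the highest of the 12 libraries for 27 of the 39 genes, and ET replicate 3 was the lowest for 26. Counts over the set are given with and without these libraries, and several genes in WT against ET are also given without ET replicate 2. Their standing apart was read from these same 39 genes, so calls made without them are not separate support. Leaving out ET replicate 2 gave calls in 30.8% of all genes in WT against ET. Without ET replicate 3 instead, the median in WT against ET was 0.47, with 0.00532% of all genes called. Leaving out ET replicate 1 gave calls in 0% of all genes in WT against ET.

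**Figure D1:**
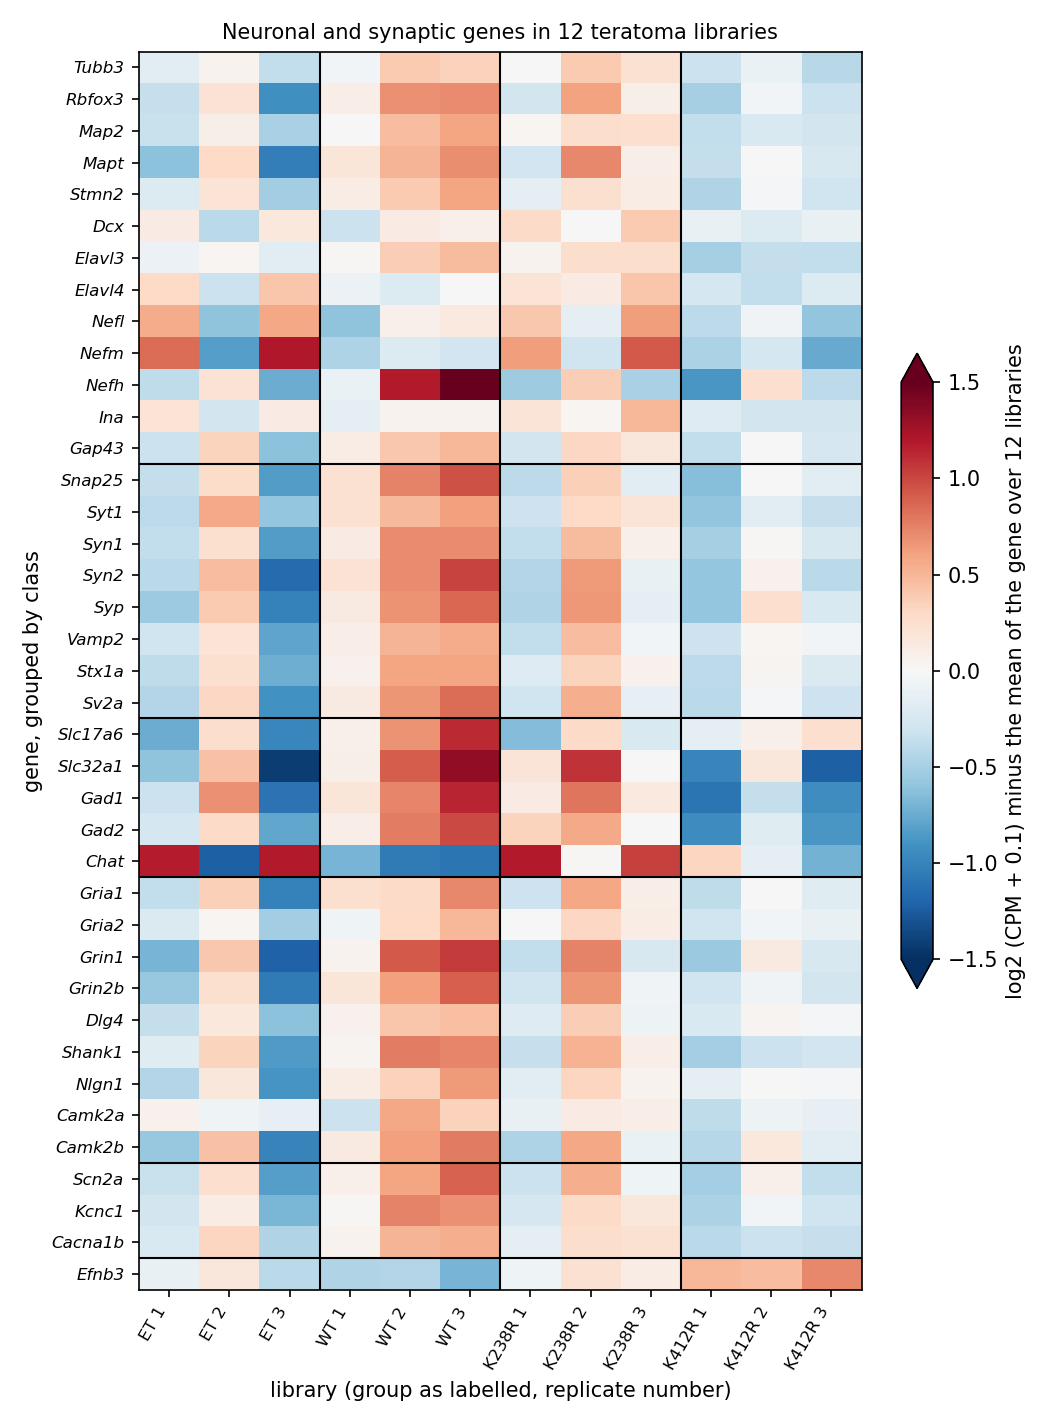
The heat map shows the 39 tested neuronal and synaptic genes (rows, grouped by class and separated by lines) in 12 libraries (columns), as log2 of CPM plus 0.1 minus the mean of the gene over the libraries, with colors ending at 1.5 in either direction. Most rows were red in WT replicates 2 and 3 and blue in ET replicate 3 and K412R replicate 1. Nefm, Nefl, Elavl4, Chat, Dcx and Ina were reddest in ET or in the libraries labelled K238R. Mapt and Tubb3 were highest in replicate 2 labelled K238R, by a small margin over WT, and Efnb3 was reddest in K412R.

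Whether WT Dnmt3L changed the neuronal genes of the teratoma was read from WT against ET. The genes were mostly higher in WT: 32 of 39 had a higher fitted level and 7 a lower level, and the median log2 fold change was 0.67, against -0.01 over all genes tested. Vesicle genes, receptors and channels were all on the higher side, while Dcx, Elavl4, Nefl, Nefm, Ina, Chat and Efnb3 were on the lower side. None passed edgeR's quasi-likelihood test at an adjusted p below 0.05, where 0.0489% of all genes did. At an unadjusted p below 0.05, 28 of 39 were higher and 3 were lower, beside 14% and 15.1% of all genes. No gene of the set was higher in every WT library than in every ET library, beside 10.2% of all genes, and 1 gene, Efnb3, was lower in every WT library, beside 10.5%. Without ET replicate 2, 34 of 39 were called by the same test, 31 higher and 3 lower, with 30.8% of all genes called and a median of 0.996. The 5 genes not called in that fit were Dcx, Nefl, Ina, Camk2a and Efnb3. Without WT replicate 1, 7 were called, with 6.97% of all genes called, and without both libraries 35 were called and the median was 1.15, with 37.4% of all genes called.

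Whether a mutant Dnmt3L differed from WT in these genes was read first from K412R. Dnmt3l RNA was at 24.9 to 39.8 CPM in K412R and 163 to 213 CPM in WT. The lysine change and the lower Dnmt3l level therefore cannot be told apart in this comparison. Here 37 of 39 genes had a lower fitted level in K412R than in WT, and 2, Efnb3 and Chat, had a higher level. The median log2 fold change was -0.66, against 0.01 over all genes tested. Elavl3 fell and Efnb3 rose at an adjusted p below 0.05, which 2.04% of all genes reached. At an unadjusted p below 0.05, 24 of 39 were lower and 1 was higher, beside 12.5% and 10.2% of all genes. In 24 of 39 genes every K412R library lay below every WT library, beside 16.8% of all genes, and in 1 gene, Efnb3, every K412R library lay above, beside 15.4%. When ET replicate 2 was left out of the fit, 9 genes fell (Map2, Stmn2, Tubb3, Elavl3, Syt1, Gad1, Gad2, Kcnc1 and Cacna1b) and Efnb3 rose, with 8.13% of all genes called. Without WT replicate 1, 9 fell (Map2, Tubb3, Elavl3, Nefh, Gad1, Gad2, Camk2a, Kcnc1 and Cacna1b) and Efnb3 rose, with 5.37% of all genes called. Without both, 27 genes fell and 1 rose, with 18% of all genes called.

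Against WT, the libraries labelled K238R differed less. There 32 of 39 genes were lower and 7 higher, and the median log2 fold change was -0.34, against 0.00 over all genes. None was called, where 0.223% of all genes were, and at an unadjusted p below 0.05, 3 were lower (Nefh, Snap25 and Slc17a6) and 3 were higher (Chat, Efnb3 and Elavl4), beside 9.61% and 7.93% of all genes. The median was -0.17 without WT replicate 3, -0.50 without replicate 2 labelled K238R and -0.19 without replicate 1 labelled K238R. Without ET replicate 2 and WT replicate 1, 6 of 39 were called, of which Chat and Efnb3 rose and Snap25, Kcnc1, Slc17a6 and Nefh fell, beside 11.6% of all genes. Dnmt3l was near the ET level in these libraries, so this comparison sets WT against libraries without a raised Dnmt3l.

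Against ET, the K238R-labelled and K412R libraries had medians nearer to 0 than WT had. In the libraries labelled K238R, 38 of 39 genes were higher and Nefm was lower, with a median of 0.31 against -0.02 over all genes. None was called, as for all genes (0%), and 4 genes, Tubb3, Map2, Elavl3 and Gria2, were higher at an unadjusted p below 0.05 and none lower, beside 2.52% and 3.09% of all genes. In K412R, 15 were higher and 24 lower, with a median of -0.02 against -0.02 over all genes. None was called, as for all genes (0%), and at an unadjusted p below 0.05 Efnb3 was higher and Elavl3, Elavl4 and Nefm were lower, beside 4.38% and 3.53% of all genes. These medians moved with single libraries: they were 0.60 and 0.31 without ET replicate 2, and 0.13 and -0.22 without ET replicate 3. The median in the libraries labelled K238R was also 0.14 without its replicate 2, and in K412R the median was -0.15 without replicate 2 and 0.08 without replicate 1. Efnb3 rose and Nefm and Elavl4 fell in K412R against ET without ET replicate 2, beside 1.51% of all genes called.

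K412R and the libraries labelled K238R were also set against each other. In 37 of 39 genes the fitted level was lower in K412R, with a median of -0.35 against -0.01 over all genes. None was called, where 0.0217% of all genes were. The median was -0.53 without replicate 1 labelled K238R and -0.19 without replicate 2 labelled K238R. At an unadjusted p below 0.05, 10 were lower and 1, Efnb3, was higher, beside 4.82% and 7.05% of all genes. Of these 10, 7 belonged to the cytoskeleton and identity class, 2 to the transmitter class (Gad1 and Gad2) and 1, Cacna1b, to the channels. The comparisons with ET share the ET libraries, and those with WT share the WT libraries, so they do not count as separate evidence.

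**Figure D2:**
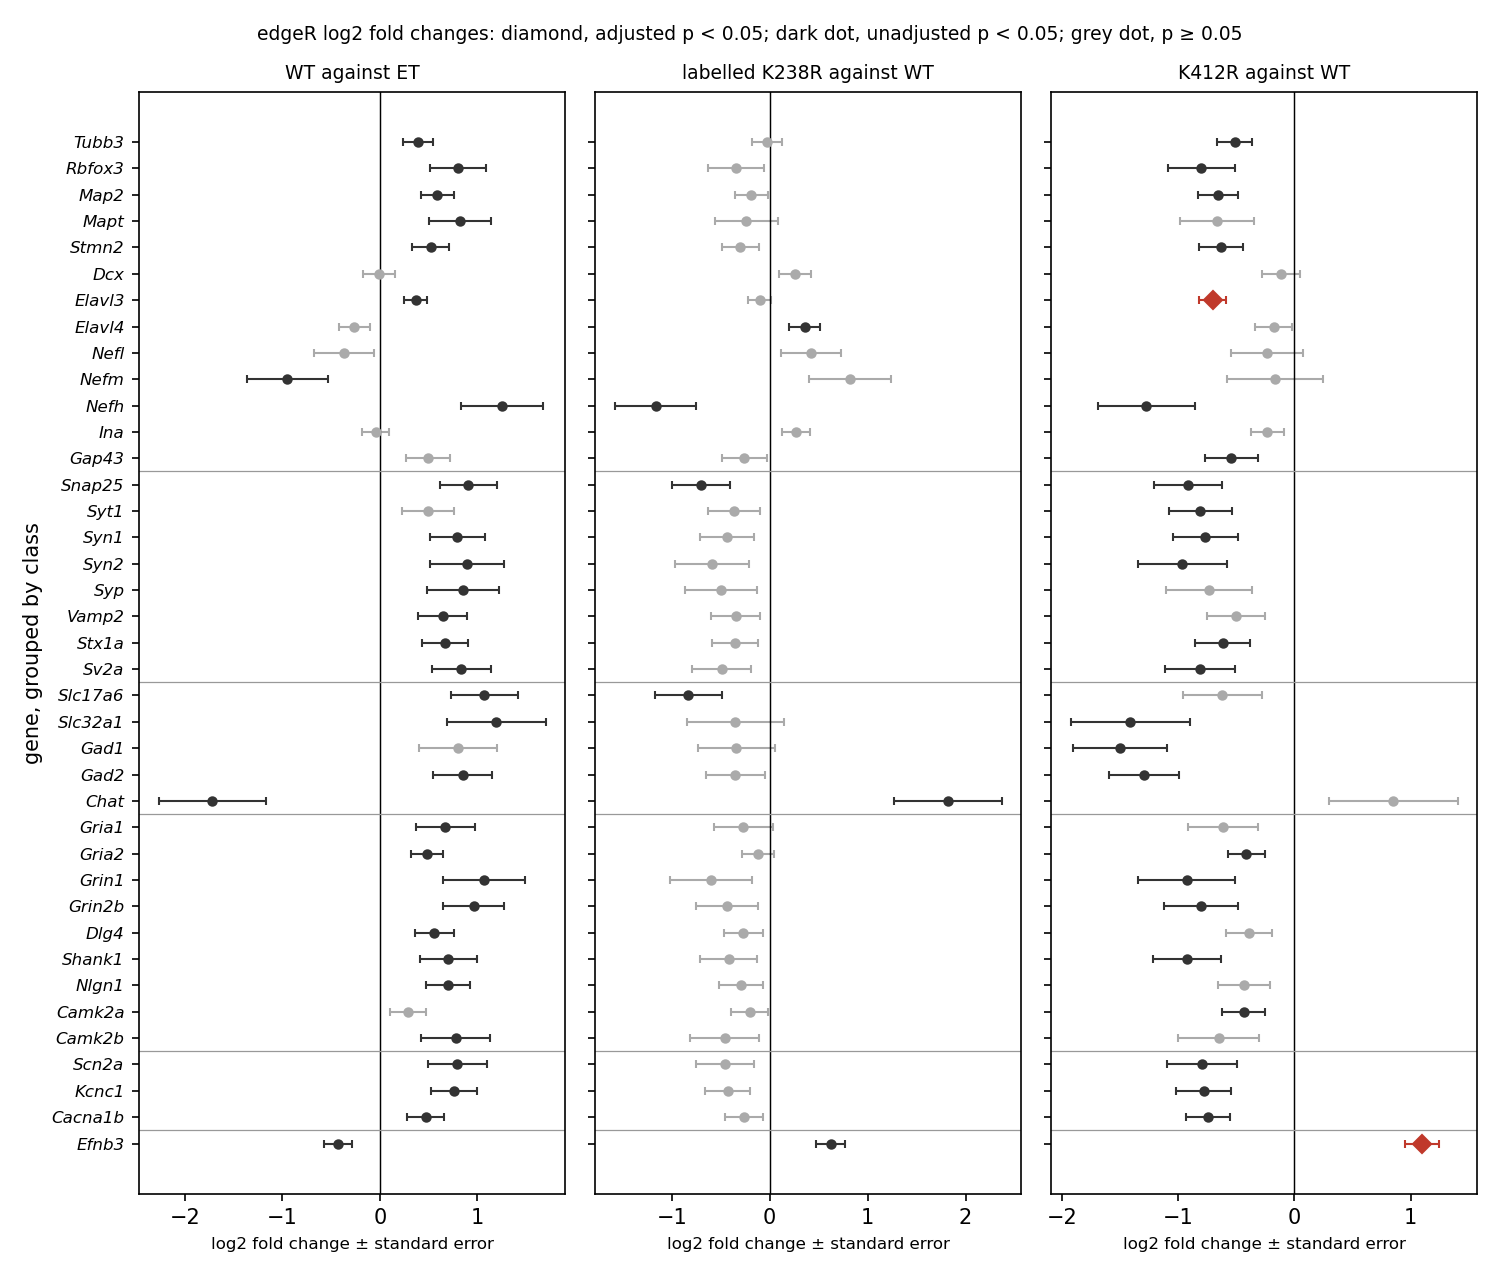
The panels show the log2 fold change of each of the 39 tested genes with its standard error, for WT against ET (left), the libraries labelled K238R against WT (middle) and K412R against WT (right), with classes separated by lines. Diamonds mark an adjusted p below 0.05, which 2 genes reached, both in the right panel: Elavl3 at -0.70 and Efnb3 at 1.10. Dark dots mark an unadjusted p below 0.05 and grey dots the rest.

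Among the identity genes, Elavl3 was the only gene of the set that fell at an adjusted p below 0.05. It encodes a neuronal RNA-binding protein of the Hu family that stabilizes transcripts of young neurons. It was at 232, 250.1 and 219 CPM in ET, 249, 316 and 340.3 CPM in WT, 254, 293 and 296 CPM in the libraries labelled K238R and 174, 192 and 189.8 CPM in K412R. All 3 K412R libraries lay below the other 9 libraries. The fold change of K412R against WT was 1.63-fold lower, or -0.70 on the log2 scale (SE 0.12, edgeR adjusted p = 0.0188). The call was lost when WT replicate 2, WT replicate 3, K412R replicate 1 or K412R replicate 3 was left out, with log2 fold changes between -0.82 and -0.61 over the 12 fits that left out a library. Over all 19 alternatives it was called in 15, with adjusted p-values between 1.06e-05 and 0.103. Against the libraries labelled K238R it was lower by -0.60 on the log2 scale (SE 0.12, edgeR adjusted p = 0.091), and against ET by -0.33 (SE 0.12, adjusted p = 0.548). WT against ET gave 0.37 (SE 0.12, adjusted p = 0.111), and 0.43 (SE 0.13, adjusted p = 0.0291) without ET replicate 2, where 30.8% of all genes were called. The annotation places an exon of Gm49318 over Elavl3 on the same strand, so reads of the pair may have been split between them.

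Because Dnmt3L acts on CpG methylation, the 250 bases upstream of the start site are shown for 3 genes: Elavl3, which fell in K412R, Map2, whose values ran alike, and Chat, whose values ran opposite to most of the set. They were chosen after their values were seen. The sequences are from RefSeq on GRCm38.p6, each printed 5′ to 3′ on the strand of the gene with CpG dinucleotides in capitals. Elavl3 lies at chr9:22052024-22052273 on the minus strand, Map2 at chr1:66175079-66175328 on the plus strand and Chat at chr14:32465910-32466159 on the minus strand.
Elavl3: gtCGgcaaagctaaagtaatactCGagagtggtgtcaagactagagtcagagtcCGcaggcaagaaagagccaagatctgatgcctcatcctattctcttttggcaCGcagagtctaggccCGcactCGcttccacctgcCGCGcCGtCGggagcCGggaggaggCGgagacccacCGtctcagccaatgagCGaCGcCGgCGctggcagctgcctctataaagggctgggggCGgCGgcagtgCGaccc
Map2: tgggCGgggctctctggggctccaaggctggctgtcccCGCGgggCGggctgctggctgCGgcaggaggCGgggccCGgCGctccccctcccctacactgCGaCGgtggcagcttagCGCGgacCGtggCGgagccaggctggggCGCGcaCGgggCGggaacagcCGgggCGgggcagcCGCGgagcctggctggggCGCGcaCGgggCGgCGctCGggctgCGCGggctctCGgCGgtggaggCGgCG
Chat: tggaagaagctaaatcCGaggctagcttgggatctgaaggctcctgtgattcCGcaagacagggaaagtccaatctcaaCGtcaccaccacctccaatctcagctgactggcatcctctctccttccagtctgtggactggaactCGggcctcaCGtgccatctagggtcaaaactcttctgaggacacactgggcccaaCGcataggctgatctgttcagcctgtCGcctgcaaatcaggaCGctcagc
Map2 had 34 CpG in this window, a number that 3.53% of 32851 RefSeq promoters reached. Elavl3 had 20, reached by 17.9%, and Chat had 8, reached by 43%. The motif TATAAA, searched on both strands, was found in the Elavl3 window and in neither of the others, and 12.4% of all the promoter windows hold it. Methylation was not measured in these libraries, and only 27 of the 40 genes (67.5%) matched the promoter table, so a comparison over the set was void.

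Map2 encodes the microtubule-associated protein of dendrites. It was at 658, 883 and 591 CPM in ET, 823, 1144 and 1244 CPM in WT, 841, 992 and 987 CPM in the libraries labelled K238R and 642, 708 and 686 CPM in K412R. Every K412R library lay below every WT library, while WT replicate 1 fell within the ET range. Map2 was 1.58-fold lower in K412R than in WT (log2 fold change -0.66, SE 0.17, edgeR adjusted p = 0.0676) and 1.51-fold higher in WT than in ET (0.59, SE 0.17, adjusted p = 0.105). The latter was 0.79 (SE 0.16, adjusted p = 0.00751) without ET replicate 2, where 30.8% of all genes were called. Exons of Gm10558 lie over Map2 on the opposite strand, and the sources used here do not give whether counting used the strand.

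Tubb3 and Rbfox3 encode βIII-tubulin and NeuN, neuronal proteins that the study stained in sections of these teratomas, beside Sox2. The study reported less of this staining in WT teratomas than in control and mutant ones. From RNA of the teratomas it also reported gene clusters low in WT and restored in mutants, with neural terms among those enriched. Its gene set analysis and its qPCR of selected neural genes were reported in the same direction. The fitted RNA of Tubb3 and Rbfox3 ran the other way, higher in WT than in ET and lower in K412R than in WT. Sox2 RNA was lower in WT than in ET (log2 fold change -0.38, SE 0.16, edgeR adjusted p = 0.147), not passing. Stained cells in sections and RNA of whole tumors are unlike measures. The study's RNA results rest on gene clusters, gene sets and selected genes, not on the set read here. These differences were not tested. Tubb3 was at 454, 528 and 395 CPM in ET, 493, 666 and 649 CPM in WT, 509, 667 and 596 CPM in the libraries labelled K238R and 407, 476 and 383 CPM in K412R. Its K412R libraries were below all WT libraries (log2 fold change -0.52, SE 0.15, edgeR adjusted p = 0.0904) and below all libraries labelled K238R (-0.49, SE 0.15, adjusted p = 0.239). Rbfox3 was at 32.4, 47.8 and 21.6 CPM in ET, 44.1, 65.9 and 67.3 CPM in WT, 33.9, 62.2 and 43.5 CPM in the libraries labelled K238R and 28.9, 39.9 and 32.8 CPM in K412R. Its K412R libraries were below all WT libraries (-0.80, SE 0.29, adjusted p = 0.136), and the ET and WT libraries overlapped through ET replicate 2 (0.80, SE 0.29, adjusted p = 0.12). Tubb3 had 0.39 in WT against ET (SE 0.15, adjusted p = 0.132). Both genes, without ET replicate 2 (30.8% of all genes called), passed as higher in WT, Tubb3 at 0.52 (adjusted p = 0.0305) and Rbfox3 at 1.14 (adjusted p = 0.017).

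The neurofilament genes did not move together. Nefh, the heavy subunit of mature large axons, was at 21, 31.9 and 16.2 CPM in ET, 25.6, 62.6 and 77.1 CPM in WT, 18.8, 35.3 and 19.5 CPM in the libraries labelled K238R and 14.9, 32.6 and 20.8 CPM in K412R. WT replicates 2 and 3 stood above the other 10 libraries, and WT replicate 1 did not. The log2 fold change was 1.26 (SE 0.42, edgeR adjusted p = 0.114) for WT against ET and -1.27 (SE 0.42, adjusted p = 0.113) for K412R against WT. The former was 1.57 (SE 0.51, adjusted p = 0.0458) without ET replicate 2, where 30.8% of all genes were called. Nefm, the medium subunit, was lower where Nefh was higher in WT against ET. It was at 555, 176 and 717 CPM in ET, 225, 269.8 and 254 CPM in WT, 482, 253 and 588 CPM in the libraries labelled K238R and 223, 259.8 and 184 CPM in K412R. ET replicates 1 and 3 and replicates 1 and 3 labelled K238R held the 4 highest values. Nefm was lower in WT than in ET (-0.95, SE 0.42, adjusted p = 0.158) and lower in K412R than in ET (-1.12, SE 0.42, adjusted p = 0.567), neither passing. Both differences passed without ET replicate 2, at -1.34 (SE 0.29, adjusted p = 0.00995) and -1.49 (SE 0.29, adjusted p = 0.0369), beside 30.8% and 1.51% of all genes. In K412R against WT Nefm had -0.17, the same sign as Nefh. Nefl, the light subunit, was also lower in WT than in ET (-0.36, SE 0.31, adjusted p = 0.433). Nefl and Nefm have overlapping exons on opposite strands.

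Ina and Elavl4 set K412R apart from the libraries labelled K238R more than from WT. Ina, the internexin of developing axons, was at 436, 313 and 413 CPM in ET, 341, 391.6 and 394 CPM in WT, 434, 388 and 537 CPM in the libraries labelled K238R and 330.3, 314 and 314 CPM in K412R. All K412R libraries lay below all libraries labelled K238R (log2 fold change -0.50, SE 0.14, edgeR adjusted p = 0.196). They also lay below all WT libraries, with a smaller difference of -0.23 (SE 0.14, adjusted p = 0.341). Elavl4, the Hu protein HuD, was at 136, 88.8 and 148 CPM in ET, 104, 96 and 111 CPM in WT, 128, 121 and 148 CPM in the libraries labelled K238R and 92.5, 86.2 and 96.3 CPM in K412R. Its K412R libraries also lay below all libraries labelled K238R (-0.53, SE 0.16, adjusted p = 0.226), while ET replicates 1 and 3 were among its highest values. With all libraries Elavl4 was not called in WT against ET (-0.26, SE 0.16, adjusted p = 0.277) or in K412R against ET (-0.44, SE 0.16, adjusted p = 0.561). Without ET replicate 2 these values were -0.44 (SE 0.11, adjusted p = 0.0129) and -0.61 (SE 0.11, adjusted p = 0.0251), beside 30.8% and 1.51% of all genes called. Exons of Nt5c2 lie over Ina on the opposite strand.

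The other genes of this class were Mapt, which encodes the microtubule protein tau, Stmn2 and Gap43, both of growing axons, and Dcx of migrating young neurons. Mapt, Stmn2 and Gap43 had log2 fold changes of 0.82, 0.52 and 0.49 in WT against ET and of -0.67, -0.63 and -0.54 in K412R against WT, none of which passed. In WT against ET all 3 passed without ET replicate 2 (30.8% of all genes called), at 1.30, 0.74 and 0.82 (adjusted p = 0.00928, 0.012 and 0.0105). Dcx stayed nearest to 0 in WT against ET, at -0.01. Over the class, 8 of 13 genes were higher and 5 lower in WT than in ET, with a median of 0.39, and all 13 were lower in K412R than in WT, with a median of -0.54.

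The genes of synaptic vesicles and release moved together in direction. All 8 were higher in WT than in ET, with a median log2 fold change of 0.81, and all 8 were lower in K412R than in WT, with a median of -0.79. None was called, and 7 and 6 of them had an unadjusted p below 0.05, beside 14% and 12.5% of all genes in these directions. Syt1, the calcium sensor of fast release, was at 147, 286 and 129.6 CPM in ET, 227, 271 and 298 CPM in WT, 156, 238.3 and 222 CPM in the libraries labelled K238R and 128, 174 and 152 CPM in K412R. Its K412R libraries lay below all WT libraries (-0.81, SE 0.27, edgeR adjusted p = 0.114), and ET replicate 2 was as high as the WT libraries, so that WT against ET gave 0.50 (SE 0.27, adjusted p = 0.225). Without ET replicate 2 that value was 0.95 (SE 0.19, adjusted p = 0.00734). Snap25, a SNARE protein of the plasma membrane, had the largest values of the class in WT against ET, 0.91, and -0.91 in K412R against WT. Syn2, a synapsin that tethers vesicles, had -0.96 in K412R against WT, and Syn1 had -0.77. The vesicle membrane proteins Syp, Vamp2 and Sv2a and the SNARE protein Stx1a were between 0.64 and 0.85 in WT against ET and between -0.81 and -0.50 in K412R against WT. All 8 genes passed as higher in WT than in ET without ET replicate 2 (30.8% of all genes called), among them Syn2 at 1.42 (adjusted p = 0.0218), Syp at 1.36 (adjusted p = 0.0241) and Snap25 at 1.26 (adjusted p = 0.013). Exons of Araf, Timp4 and Gm14703 lie opposite to those of Syn1, Syn2 and Syp.

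The transmitter class held the largest differences between K412R and WT. Gad1 and Gad2 make GABA, Slc32a1 loads GABA and glycine into vesicles, Slc17a6 loads glutamate, and Chat makes acetylcholine. Gad2 was at 36, 52.7 and 25.1 CPM in ET, 46.3, 73.3 and 85.6 CPM in WT, 54.4, 63.8 and 42.9 CPM in the libraries labelled K238R and 22.4, 37.9 and 23.4 CPM in K412R. Every K412R library lay below every WT library and every library labelled K238R. The log2 fold change was -1.29 against WT (SE 0.30, edgeR adjusted p = 0.0526) and -0.94 against the libraries labelled K238R (SE 0.30, adjusted p = 0.25). Gad1 was lower in K412R than in WT by -1.503 on the log2 scale (SE 0.40, adjusted p = 0.0718), and Slc32a1 by -1.41 (SE 0.51, adjusted p = 0.142). With DESeq2 in place of edgeR, Gad1 and Gad2 were called in K412R against WT (adjusted p = 0.00418 and 0.00137), beside 9.1% of all genes. These GABA genes were higher in WT than in ET by 0.80 for Gad1, 0.85 for Gad2 and 1.20 for Slc32a1 on the log2 scale, none passing. All 3 passed without ET replicate 2 (30.8% of all genes called), at 1.41 (adjusted p = 0.0196), 1.17 (adjusted p = 0.0217) and 1.84 (adjusted p = 0.0365).

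Slc17a6 did not have the low K412R values of the GABA genes. It was at 38.3, 77.2 and 32.7 CPM in ET, 67.9, 103 and 140.5 CPM in WT, 41.1, 78.9 and 54.9 CPM in the libraries labelled K238R and 58, 67.7 and 76.4 CPM in K412R. The K412R libraries overlapped the WT libraries through WT replicate 1, and they lay within the range of the libraries labelled K238R. The log2 fold change was -0.62 in K412R against WT (SE 0.34, edgeR adjusted p = 0.294), 0.21 in K412R against the libraries labelled K238R (SE 0.34, adjusted p = 0.889) and 1.07 in WT against ET (SE 0.34, adjusted p = 0.111). The last was 1.56 (SE 0.33, adjusted p = 0.0101) without ET replicate 2, where 30.8% of all genes were called. Whether it differed from the GABA genes was not tested. Slc17a6 and Efnb3 were the 2 genes that were higher in K412R than in the libraries labelled K238R.

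Chat was low throughout and ran against the set. It was at 7.86, 1.4 and 7.89 CPM in ET, 2.06, 1.59 and 1.55 CPM in WT, 7.89, 3.46 and 7.05 CPM in the libraries labelled K238R and 4.27, 3.09 and 2.04 CPM in K412R. ET replicate 2 lay with the WT libraries, while ET replicates 1 and 3 and replicates 1 and 3 labelled K238R were the 4 highest. Chat was 3.30-fold lower in WT than in ET (log2 fold change -1.72, SE 0.55, edgeR adjusted p = 0.111) and 3.54-fold higher in the libraries labelled K238R than in WT (1.82, SE 0.55, adjusted p = 0.147). Without ET replicate 2 the difference of WT from ET was -2.17 (SE 0.36, adjusted p = 0.00437), beside 30.8% of all genes called. With DESeq2 Chat was called in both comparisons (adjusted p = 0.0278 and 0.0253), beside 10.4% and 4.27% of all genes.

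**Figure D3:**
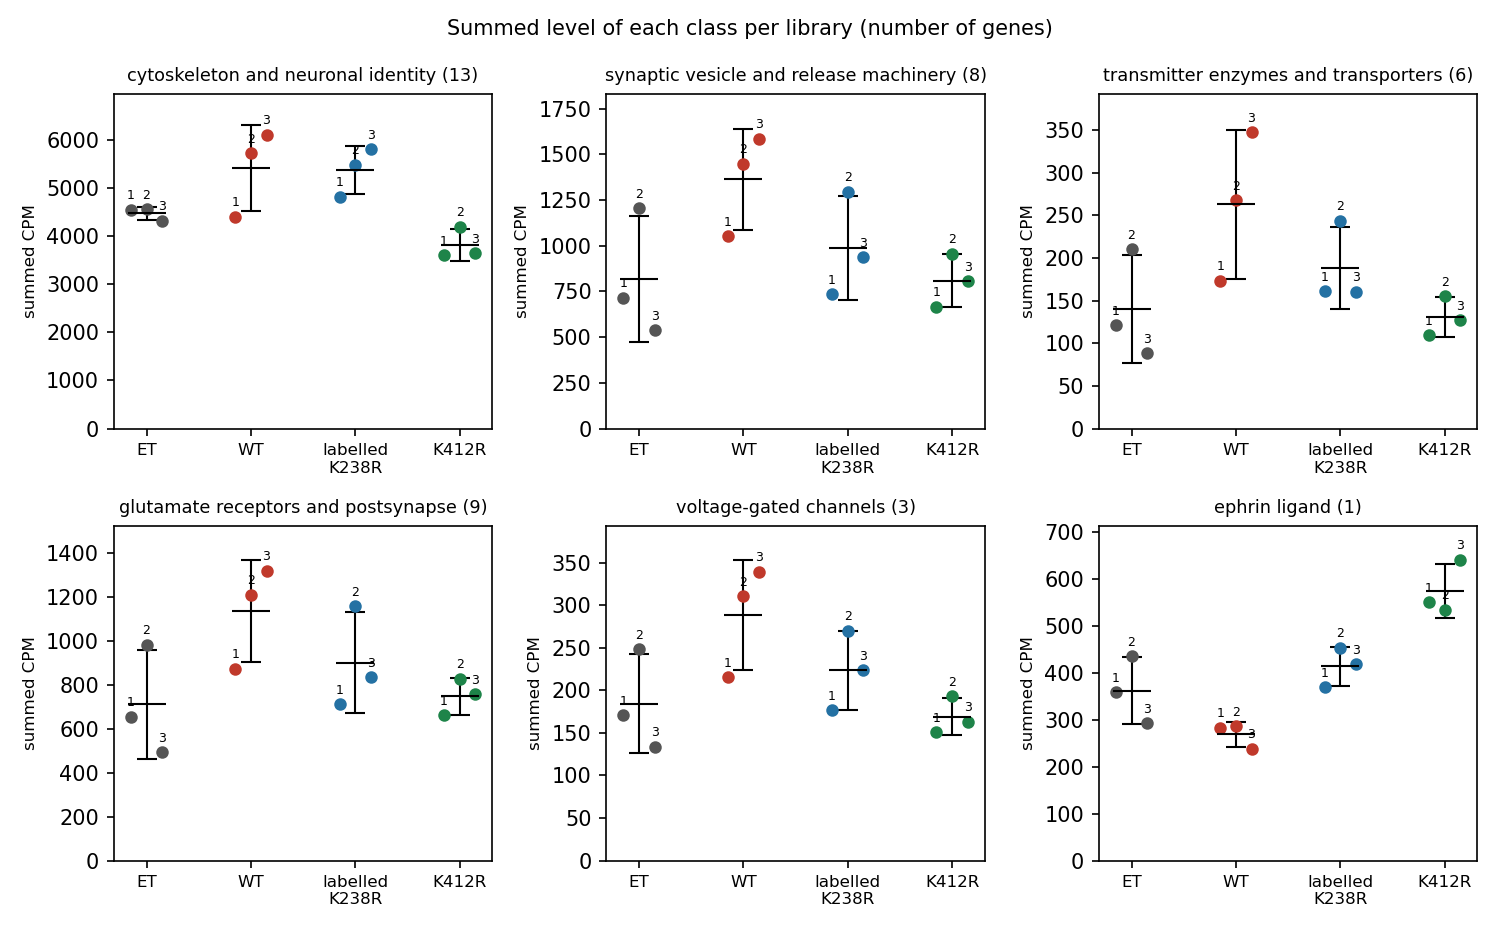
Each panel sums the CPM of a class of genes per library, with a dot for each library, its replicate number above it, and a bar for the mean with SD over 3 libraries. The transmitter class was at 109 to 156 CPM in K412R and 174 to 348 CPM in WT, the vesicle class at 666 to 956 CPM and 1053 to 1585 CPM, and Efnb3 was higher in all K412R libraries (535 to 641 CPM) than in any other library.

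Glutamate receptors and postsynaptic genes were higher in WT than in ET in 9 of 9, with a median log2 fold change of 0.70, and lower in K412R than in WT in 9 of 9, with a median of -0.62. None was called, and 8 and 5 had an unadjusted p below 0.05, beside 14% and 12.5% of all genes in these directions. Dlg4, the PSD-95 scaffold under the postsynaptic membrane, was at 160.4, 230.4 and 134 CPM in ET, 216, 275 and 282 CPM in WT, 180.0, 266 and 196 CPM in the libraries labelled K238R and 176, 213 and 201 CPM in K412R. The K412R libraries were just below the lowest WT library, WT replicate 1 (-0.39, SE 0.20, edgeR adjusted p = 0.265), and ET replicate 2 lay above WT replicate 1 (WT against ET 0.56, SE 0.20, adjusted p = 0.12). The NMDA receptor subunits Grin1 and Grin2b had 1.07 and 0.96 in WT against ET and -0.93 and -0.80 in K412R against WT. The AMPA receptor subunits Gria1 and Gria2 had smaller values, 0.67 and 0.48 in WT against ET and -0.62 and -0.41 in K412R against WT. Shank1, a scaffold below Dlg4, had -0.93 in K412R against WT, Nlgn1, an adhesion protein of the synapse, -0.43, and the kinase subunits Camk2a and Camk2b -0.44 and -0.65. Of the 9, 8 passed as higher in WT than in ET without ET replicate 2 (30.8% of all genes called), all but Camk2a, among them Grin1 at 1.68 (adjusted p = 0.0182), Grin2b at 1.40 (adjusted p = 0.0099) and Dlg4 at 0.82 (adjusted p = 0.00896). Grin1 lies opposite Grin1os, and its reads may include those of that antisense gene.

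All 3 voltage-gated channels were higher in WT than in ET and lower in K412R than in WT, each at an unadjusted p below 0.05 and none called. Of all genes, 14% and 12.5% had such a p in these directions. Cacna1b, the N-type calcium channel of nerve terminals, was at 77.2, 113 and 66.5 CPM in ET, 94.3, 129 and 132 CPM in WT, 81.8, 109 and 106 CPM in the libraries labelled K238R and 68.7, 72.6 and 71.3 CPM in K412R. Its K412R libraries lay below all WT libraries and below all libraries labelled K238R (-0.74 against WT, SE 0.19, edgeR adjusted p = 0.0676). Kcnc1, a fast potassium channel of rapidly firing neurons, was at 29.8, 39 and 22.3 CPM in ET, 36.4, 60.3 and 57.8 CPM in WT, 30.3, 44 and 40.4 CPM in the libraries labelled K238R and 25.8, 35 and 29.1 CPM in K412R. Its K412R libraries lay just below WT replicate 1 and well below WT replicates 2 and 3 (-0.78, SE 0.24, adjusted p = 0.0931), and ET replicate 2 lay above WT replicate 1 (0.76, SE 0.24, adjusted p = 0.11). Scn2a, a sodium channel of axons, had 0.80 in WT against ET and -0.80 in K412R against WT. The 3 channels passed as higher in WT than in ET without ET replicate 2 (30.8% of all genes called), Cacna1b at 0.73 (adjusted p = 0.00931), Kcnc1 at 0.99 (adjusted p = 0.0141) and Scn2a at 1.13 (adjusted p = 0.0247).

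Efnb3 encodes ephrin-B3, a membrane ligand of Eph receptors known for axon guidance at the midline. It was at 358, 435 and 292 CPM in ET, 283, 286 and 238.4 CPM in WT, 369.8, 454 and 418 CPM in the libraries labelled K238R and 550.1, 535 and 641 CPM in K412R. All 3 K412R libraries lay above the other 9 libraries, and all 3 WT libraries lay below the 9 libraries of the other groups. Efnb3 rose 2.14-fold in K412R against WT (log2 fold change 1.10, SE 0.15, edgeR adjusted p = 0.00913). The call was lost without WT replicate 3 and without K412R replicate 3, with log2 fold changes between 1.02 and 1.15 over the fits that left out a library, and it held in 17 of 19 alternatives, with adjusted p-values between 1.61e-09 and 0.056. The other comparisons gave -0.43 for WT against ET (SE 0.15, adjusted p = 0.115), 0.62 for the libraries labelled K238R against WT (SE 0.15, adjusted p = 0.0963), 0.67 for K412R against ET (SE 0.15, adjusted p = 0.309) and 0.48 for K412R against the libraries labelled K238R (SE 0.15, adjusted p = 0.229). Efnb3 was among the differentially expressed genes that the study selected from these teratomas, so its direction is not independent evidence.

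A wider list of 90 other neuronal genes was read in the same fits. All 90 were tested, and 77 were higher and 13 lower in WT than in ET, with a median log2 fold change of 0.56, none called and 58 higher and 6 lower at an unadjusted p below 0.05, beside 14% and 15.1% of all genes. In K412R against WT, 10 were higher and 80 lower, with a median of -0.55 and with 54 lower and 5 higher at an unadjusted p below 0.05, beside 12.5% and 10.2% of all genes. Against WT, 17 of the 90 were higher and 73 lower in the libraries labelled K238R, with a median of -0.30 and none called. Of the 90, 2 were called, both in K412R against WT, where 2.04% of all genes were called, so the count was near that of all genes. L1cam, an adhesion protein of axons, fell: it was at 176, 221 and 142 CPM in ET, 213, 287 and 284 CPM in WT, 195, 210.4 and 245 CPM in the libraries labelled K238R and 137, 159 and 158 CPM in K412R (log2 fold change -0.79, SE 0.17, edgeR adjusted p = 0.038). Eomes, a transcription factor of intermediate neuronal progenitors and also of early mesoderm and endoderm, rose: it was at 5.22, 8.29 and 6.65 CPM in ET, 3.67, 2.21 and 1.67 CPM in WT, 6.67, 3.91 and 4.26 CPM in the libraries labelled K238R and 8.25, 6.59 and 5.32 CPM in K412R (1.41, SE 0.32, adjusted p = 0.0479). By class, the 18 presynaptic genes had the largest median in both comparisons, 0.75 in WT against ET and -0.77 in K412R against WT, and the 16 subtype markers had the smallest in WT against ET, 0.23. In K412R against WT the smallest median in size was that of the 14 postsynaptic genes, -0.39.

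Other cell types of the tissue moved beside these genes. The summed CPM of the 40 genes was 5867 to 7642 in ET, 6997 to 9934 in WT, 6974 to 8900 in the libraries labelled K238R and 5733 to 6858 in K412R. Of 10 astrocyte and radial glia markers, 9 were higher in WT than in ET, and their summed level was 959 to 1780 CPM in ET, 1726 to 2344 CPM in WT, 1251 to 1535 CPM in the libraries labelled K238R and 1231 to 1730 CPM in K412R. Of 10 oligodendrocyte and Schwann cell markers, 10 were higher in WT than in ET and 5 were higher in K412R than in WT, with sums of 353 to 459, 538 to 771, 564 to 712 and 585 to 981 CPM in the same order. Thus the myelinating glia markers did not have the low values in K412R that the neuronal genes had.

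The 10 skeletal muscle markers, which belong to another germ layer, were all higher in WT than in ET and all lower in K412R than in WT, with median log2 fold changes of 2.05 and -2.44. Their sums were 199.7 to 431 CPM in ET, 285 to 2270.0 CPM in WT, 25.8 to 770.3 CPM in the libraries labelled K238R and 252 to 259.9 CPM in K412R, and WT replicates 2 and 3, which had the highest sums of neuronal genes, also held the highest muscle sums. The 10 neuroendocrine markers, which share vesicle genes with neurons, summed to 853 to 1749, 1598 to 1801, 1075 to 1603 and 1224 to 1471 CPM in the same order of groups. Of 10 neural progenitor markers, 7 were lower in WT than in ET, and 6 were higher in K412R than in WT, with sums of 931 to 1261, 1006 to 1096, 934 to 1246 and 1008 to 1053 CPM.

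Of 10 peripheral and sympathetic neuron markers, 6 were lower and 4 higher in WT than in ET, and 4 were lower and 6 higher in K412R than in WT, with sums of 168 to 244, 153 to 167, 201 to 327 and 195 to 220.0 CPM. Of them, Dbh, the enzyme that makes noradrenaline, fell in K412R against WT (log2 fold change -3.22, edgeR adjusted p = 0.0219), where 2.04% of all genes were called. Its counts were low, at 48, 82 and 74 in WT and 4, 9 and 9 in K412R. Of 10 markers of pluripotent cells, 9 were lower in WT than in ET, with sums of 88.9 to 174, 31.2 to 86.3, 53.9 to 88.2 and 70.7 to 90.3 CPM. Photoreceptor markers were nearly silent, at 1.81 to 4.44 CPM in sum, and 8 of the 10 (Crx, Nrl, Rcvrn, Pde6b, Gnat1, Arr3, Opn1sw and Prph2) had no count in at least 1 library. No marker of the other lists was without counts in any library. The part of any of these cell types in the neuronal results was not tested.

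**Figure D4:**
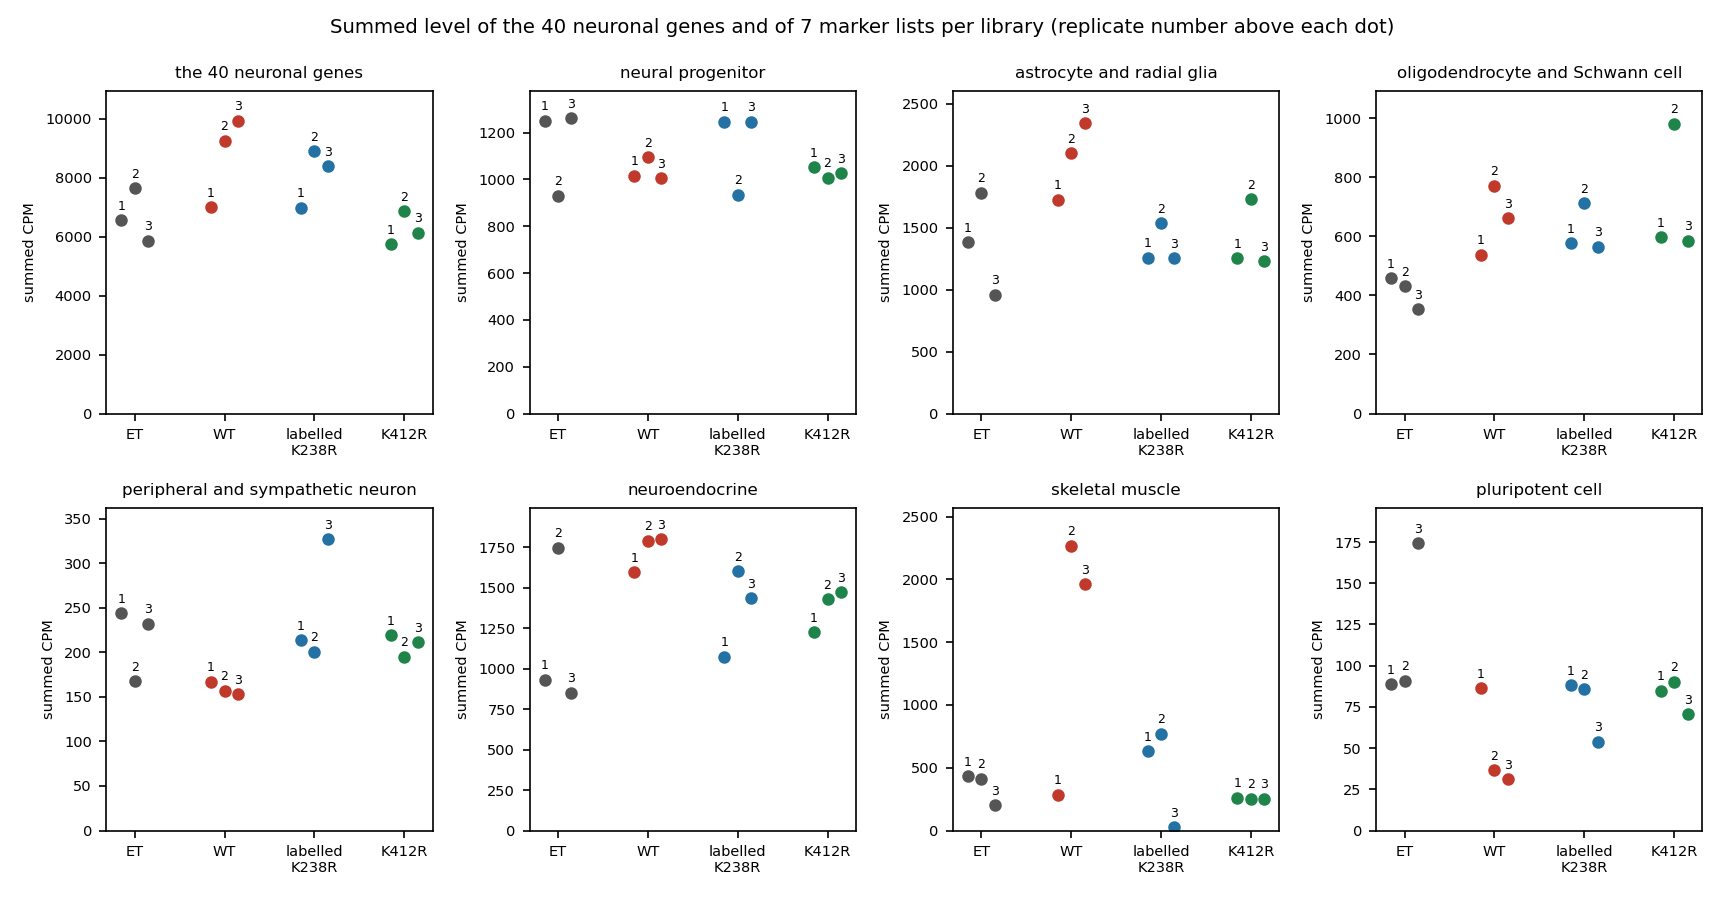
Each panel sums CPM per library for the 40 neuronal genes or for a list of 10 markers of another cell type, with a dot for each library and its replicate number above it. The neuronal sum was lowest in K412R replicate 1 (5733 CPM) and highest in WT replicate 3 (9934 CPM), and the skeletal muscle sum reached 2270.0 and 1963 CPM in WT replicates 2 and 3 and stayed at or below 770.3 CPM in the other 10 libraries.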

How the data were processed

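RNA of 12 teratomas was sequenced, with libraries made by a CORALL RNA-seq kit. The submitters' processing notes name fastp, STAR, Salmon and GATK and the build GRCm39. Versions of these tools were not read here, and the gene annotation, use of molecular identifiers and use of strand are not given in the sources used here. The authors deposited estimated counts per gene symbol, 1 column per library, which were whole numbers and not normalized. Counts were scaled here to CPM with edgeR's TMM factors.

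Genes were filtered with filterByExpr and tested with edgeR 4.0.16 (R 4.3.3) by the quasi-likelihood test with robust fitting, all 12 libraries in a single fit with a mean per group, 6 comparisons, and Benjamini-Hochberg adjustment over 18405 genes with a threshold of 0.05. SE is the log2 fold change divided by the root of the F statistic. DESeq2 1.42.0 was an alternative, and the script was tested on simulated data. The labels do not say whether libraries of a group came from separate animals, so p-values measure the spread between these samples. Values per library are given for called genes, the gene with the highest mean CPM in each class, the 3 lowest unadjusted p-values of each comparison, Tubb3, Rbfox3 and Efnb3; L1cam and Eomes were named by their calls, and Nefm was added after its values were seen. The members and lists were chosen with earlier results of these data known. Promoters are RefSeq sequences on GRCm38.p6, a different build from that of the counts, and exon overlaps were read by gene name from GENCODE on GRCm38.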

Additional observations from a re-analysis of the deposited data

How the results depend on the processing

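Counts of called genes among the 39 changed with the processing in most comparisons, and median log2 fold changes kept their direction under every alternative except in K412R against ET, where the median lay between -0.22 and 0.31. With DESeq2 in place of edgeR, 13 genes were called in WT against ET, 2 in the libraries labelled K238R against WT, 13 in K412R against WT, 1 in K412R against ET and 2 in K412R against the libraries labelled K238R, beside 10.4%, 4.27%, 9.1%, 0.484% and 2.09% of all genes. With only the 2 groups compared in the fit, 2 were called in the libraries labelled K238R against WT, 22 in K412R against WT and 1 in K412R against the libraries labelled K238R, beside 2.17%, 10.6% and 0.374% of all genes. Without ET replicate 2 and WT replicate 1 together, the counts were 35 (median 1.15), 6, 28, 4 and 4 in the same order as for DESeq2, beside 37.4%, 11.6%, 18%, 2.46% and 1.47%. Leaving out a library at a time gave 0 to 34 calls in WT against ET, 0 to 2 in the libraries labelled K238R against WT, 0 to 10 in K412R against WT, 0 to 3 in K412R against ET and 0 to 2 in K412R against the libraries labelled K238R. In WT against ET these were 34 without ET replicate 2 (30.8% of all genes called) and 7 without WT replicate 1 (6.97%), and the median lay between 0.4691 without ET replicate 3 and 0.9964 without ET replicate 2. In K412R against WT they were 10 without ET replicate 2 (8.13%) or WT replicate 1 (5.37%), 6 without ET replicate 3 (3.58%), 1 without WT replicate 2 (0.245%) or K412R replicate 1 (0.0743%), and 0 without WT replicate 3 (0.0638%) or K412R replicate 3 (0.0532%). The most calls in the other comparisons came without ET replicate 2, beside 4.32%, 1.51% and 1.11% of all genes. The cause was not tested.

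Adding the replicate number as a replicate block gave 10 calls in WT against ET and 16 in K412R against WT, beside 5.03% and 6.15% of all genes, and changed no other count. Deviations from group means correlated between -0.258 and 0.385 (median 0.0697) for 18 pairs of the same number, of which 7 were above 0.1. For 36 pairs of different numbers they correlated between -0.439 and 0.402 (median -0.0395), and 7 were above 0.1. These ranges overlap, so whether the numbers pair the libraries was not settled. RLE size factors, no filter on low counts and leaving out Gm26917, which took 7.47% to 13.9% of the counts of a library, changed no count of called genes.

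With 3 libraries per group, small differences could not be told from the spread between libraries, and some large ones did not pass either. Among these were Chat, 3.30-fold lower in WT than in ET, and Gad1, 2.835-fold lower in K412R than in WT. Chat, with 906 counts over all libraries, was the least deeply measured of the genes tested.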
